A study of Mus musculus with 12 samples.

Results

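The livers of ICR mice on CDAHFD, a high-fat diet of defined amino acids that lacks choline, were compared with those of C57BL/6J mice on the same diet. The comparison was defined by strain and diet in the sample labels, and it held 6 of the 12 liver RNA-seq libraries of the study, 3 from ICR and 3 from C57BL/6J. All mice were male and wild type (WT), were bought at 8 weeks of age and were fed for 10 weeks. The other 6 libraries came from ICR and C57BL/6J mice on a normal diet (ND), with 3 per strain, and served to show which strain differences were also present without CDAHFD. Each library was treated as a separate mouse, although the labels number the samples without saying so, and p-values therefore measure the spread between these samples.

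ICR is an outbred stock, so its 3 mice may differ in genotype, whereas C57BL/6J is inbred and is the strain of the mouse reference genome to which the reads of both strains were aligned. CDAHFD withholds choline, which hepatocytes need to make phosphatidylcholine for the export of very-low-density lipoprotein, and it leads to steatosis, inflammation and fibrosis, a model of metabolic dysfunction-associated steatohepatitis (MASH). In injured liver, type I interferons act through a cell surface receptor and raise antiviral genes such as the Ifit, Oas and Mx families, many of which carry an interferon-stimulated response element in their promoters. Interferon-gamma raises GTPases, antigen-presenting molecules and DNA sensors of the AIM2-like family.

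The 6 CDAHFD libraries held 29665092 to 30826629 gene counts in ICR and 24612309 to 32214782 in C57BL/6J, and the albumin gene Alb was abundant in all of them (56103 to 68176 CPM in ICR, 34612 to 63274 CPM in C57BL/6J, where CPM are counts scaled to a common library size). Replicate 1 of both strains stood apart from its group. Relative to the other 2 libraries of its group it was lower in resident Kupffer cell markers (15 genes, median log2 difference -0.78 in ICR and -0.87 in C57BL/6J) and higher in ductular and cholangiocyte markers (17 genes, 1.88 and 1.24). In bulk liver, fewer cells of a type and less RNA per cell cannot be told apart. No pair of libraries within a group was alike to sampling noise.

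Of 13901 genes tested with edgeR's quasi-likelihood F test, 2172 (15.6%) differed between ICR and C57BL/6J on CDAHFD at a Benjamini-Hochberg adjusted p under 0.05. Of these, 1130 (8.13%) were higher and 1042 (7.5%) lower in ICR, and 940 (6.76%) also differed at least 2-fold. At an unadjusted p under 0.05 there were 4472 genes (32.2%), 2262 with a positive (16.3%) and 2210 with a negative fold change (15.9%). The counts depended on single libraries. They were 387 higher and 373 lower without ICR replicate 2, 394 and 373 without ICR replicate 3, 411 and 575 without C57BL/6J replicate 1, 679 and 691 without C57BL/6J replicate 3, and 540 higher without C57BL/6J replicate 2. Without replicate 1 of both strains, an alternative added after seeing the data, 423 genes were higher and 497 lower. Of the 128 genes named here that were called, 94 were called in every one of the 12 fits that each left out 1 library, and for the other 34 the number of fits that lost the call is given where they are named. Counts of list members below are to be read against the 8.13% higher and 7.5% lower of all genes.

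**Figure D1:**
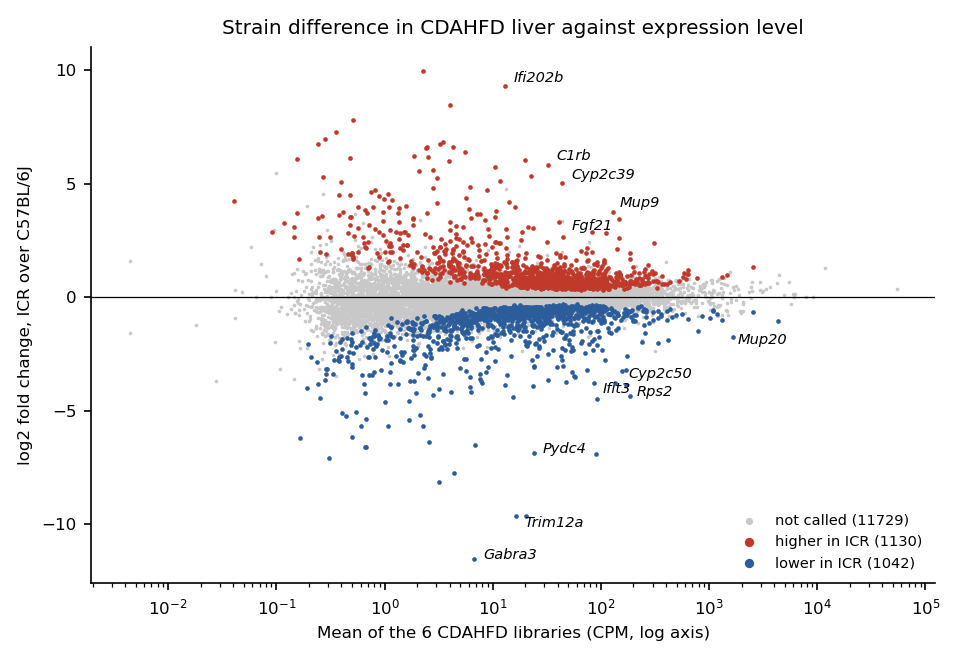
Mean level over the 6 CDAHFD libraries (CPM, log axis) against the log2 fold change of ICR over C57BL/6J, 1 point per tested gene. The 1130 genes called higher in ICR are red, the 1042 called lower are blue and the others grey, and the farthest points include Ifi202b at 9.29 and Gabra3 at -11.54.

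Of the 24 genes with the largest differences, 12 in each direction, 19 averaged under 1 CPM in 1 strain. Ifi202b (ENSMUSG00000026535), an interferon-inducible member of the AIM2-like family whose expression is known to be lost in C57BL/6 mice, had 21.9, 25.8 and 29.7 CPM in ICR and 0.114, 0 and 0 CPM in C57BL/6J (log2 fold change 9.29 ± 0.86 SE, edgeR adjusted p = 4.878e-05). Cck, which encodes the gut and brain peptide cholecystokinin, had 7.59, 8.87 and 8.85 CPM in ICR against 0.171, 0.0793 and 0 CPM in C57BL/6J. Ceacam2, a cell adhesion molecule, had 20, 24.1 and 24.6 CPM in ICR against 0.881, 0.634 and 0.438 CPM in C57BL/6J. In each of these genes the lowest ICR library was far above the highest C57BL/6J library. The others among the 12 largest rises were the histone gene Hist2h2bb (8.46), Trim43b (6.85), Cdhr2 (6.77), Tmc5 (6.38), C1rb (5.84), Nuggc (5.24), Cyp2c39 (5.01), Pcna-ps2 (4.86) and Sectm1b (4.71). Predicted genes were passed over in this order, and 5 of them had differences in the same range, Gm5077 (6.03), Gm11710 (5.98), Gm9825 (5.74), Gm5506 (5.32) and Gm5499 (4.80).

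In the other direction, Gabra3, the alpha-3 subunit of the GABA-A receptor on the X chromosome, had no count in any ICR library and 14.6, 12.5 and 13.5 CPM in C57BL/6J. Against a floor of 3 counts over the ICR group, Gabra3 was at least 492-fold lower in ICR. Trim12a, a tripartite motif protein related to antiviral TRIM5, had 0.105, 0 and 0 CPM in ICR and 37.1, 25.6 and 36.2 CPM in C57BL/6J (-9.64 ± 0.59, adjusted p = 1.161e-06). Lonrf1 (-4.20), Cd200r4 (-4.30), Rps2 (-4.36), Mnda (-4.42), D17H6S56E-5 (-4.51), Cebpe (-6.41), Pydc4 (-6.85), Clec2h (-7.73) and the olfactory receptor genes Olfr1034 (-8.13) and Olfr1033 (-9.66) made up the rest of the 12 largest falls, with the predicted genes Gm4788 (-6.90) and Gm4955 (-6.50) passed over. Rps2 and D17H6S56E-5 kept 14.5 to 21.6 and 6.14 to 9.12 CPM in ICR. Clec2h alone among the 24 lost its call in a fit without 1 library, without ICR replicate 2 (adjusted p = 0.0629) or ICR replicate 3 (0.0636). Of the genes at 1 CPM or more in every library of 1 strain, 4 held at most 3 counts over the group in the other, Gabra3 and Olfr1034 in ICR and Hist2h2bb and Gm13225 in C57BL/6J.

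Type I interferon-stimulated genes were lower in ICR livers as a group. Of 46 tested members 35 were called lower, against 7.5% of all genes, and no member was called higher by any of the 4 tests run. All 46 fold changes were negative (-3.78 to -0.02), with a median of -1.459 against -0.012 over all genes. In 43 of the 46, every ICR library was below every C57BL/6J library, which held for 22.2% of all genes. The summed level of the 46 genes was 1523, 1435 and 1432 CPM in ICR and 3474, 3060 and 4961 CPM in C57BL/6J on CDAHFD. ICR libraries were thus close to each other, and C57BL/6J replicate 3 was the highest of all.

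Ifit3 (ENSMUSG00000074896, chr19:34583531-34588731 in GRCm38), which encodes a protein that binds foreign RNA in complex with the other IFIT proteins, had 15.5, 11.7 and 8.21 CPM in ICR against 108, 113 and 266 CPM in C57BL/6J (log2 fold change -3.78 ± 0.38, adjusted p = 9.283e-05). Its neighbour Ifit1 (chr19:34640871-34650009), which binds RNA without a methylated cap, had 17.3, 13.6 and 12.7 CPM in ICR against 90.5, 88.3 and 223 CPM in C57BL/6J (-3.20 ± 0.42, adjusted p = 0.0007361). Ddx60 (chr8:61928087-62038244), a helicase that takes part in RNA sensing, had 10.6, 10.1 and 8.85 CPM in ICR against 39, 34.8 and 56.9 CPM in C57BL/6J (-2.14 ± 0.22, adjusted p = 0.0001009). For none of the 3 did the groups overlap, and the lowest C57BL/6J library of each was over 3 times the highest ICR library.

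The promoters of these 3 genes are shown because they carry matches to the interferon-stimulated response element. Each line gives the 170 bases before the RefSeq start site (GRCm38.p6), 5′ to 3′ on the gene's own strand, with capitals at matches to GAAANNGAAA on either strand (TTTCNNTTTC where the match is on the other strand).
Ifit3, chr19:34583359-34583528, plus strand: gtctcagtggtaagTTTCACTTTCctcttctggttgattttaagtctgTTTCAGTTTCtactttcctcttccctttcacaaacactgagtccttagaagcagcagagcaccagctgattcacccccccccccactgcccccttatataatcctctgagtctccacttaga
Ifit1, chr19:34640719-34640888, plus strand: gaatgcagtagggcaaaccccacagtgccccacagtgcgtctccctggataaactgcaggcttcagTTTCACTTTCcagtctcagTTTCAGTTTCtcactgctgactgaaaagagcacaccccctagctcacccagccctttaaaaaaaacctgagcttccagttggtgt
Ddx60, chr8:61927917-61928086, plus strand: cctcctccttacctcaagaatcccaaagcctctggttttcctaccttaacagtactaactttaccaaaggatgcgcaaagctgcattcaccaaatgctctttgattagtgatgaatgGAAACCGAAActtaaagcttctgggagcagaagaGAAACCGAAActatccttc
Each promoter held 2 matches, in Ifit3 at 156 and 122 bases, in Ifit1 at 104 and 85 bases and in Ddx60 at 53 and 19 bases before the start. Over the 250 bases searched, the motif was found in 13 of the 27 called interferon-stimulated genes that have a RefSeq promoter (48.1%), in 3 of 5 members not called and in 344 of 10277 tested genes (3.35%). A match is a description of the letters and not of binding.

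Other members differed in the same direction across the roles in the pathway. Of the sensors, Ifih1 had 50.9, 57.3 and 56.8 CPM in ICR against 81.2, 108 and 154 CPM in C57BL/6J (-1.06), and Ddx58 and Dhx58 were lower by -0.98 and -1.76. The transcription factor Irf7 was called lower (-1.37) and lost the call in 4 of 12 fits, without C57BL/6J replicate 3 or any 1 ICR CDAHFD library (adjusted p of up to 0.0685). Among the effectors, the kinase Eif2ak2, which halts translation on double-stranded RNA, had 37.6, 36.2 and 35.8 CPM in ICR against 81.1, 72.3 and 100 CPM in C57BL/6J (-1.21 ± 0.16, adjusted p = 0.0007131). Isg15, a ubiquitin-like modifier, had 13.2, 12.4 and 10.9 CPM in ICR against 73.1, 41.6 and 107 CPM in C57BL/6J (-2.60). Rsad2 (-2.47), Ifit2 (-2.34), Oasl2 (-2.11) and Oas2 (-1.57) were also lower. Mx1, whose C57BL/6J allele is known to be truncated, had 0.791, 0.173 and 0.193 CPM in ICR and 4.83, 4.02 and 5.15 CPM in C57BL/6J (-3.57 ± 0.53). The 11 members not called, among them Zbp1, Xaf1, Parp14 and Ifi27, all had negative fold changes.

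On ND the strains were closer in these genes. The 46 members had a median log2 fold change of -0.174 and 6 were called lower in ICR, against 10.1% of all genes. Their summed level was 857.9, 2051 and 1055 CPM in ICR and 1321, 1483 and 1281 CPM in C57BL/6J. The ICR libraries thus lay on both sides of the C57BL/6J libraries, and ICR ND replicate 2 was the highest. In mean log2 level, relative to each gene's mean over the 12 libraries, ICR ND replicates 1 and 3 were below every C57BL/6J ND library. They were at -1.51 and -1.04, against -0.55, -0.36 and -0.52 in C57BL/6J, and only ICR ND replicate 2 was above. The strain by diet term, which tests whether the strain difference on CDAHFD is unlike that on ND, was under an unadjusted p of 0.05 and negative in 33 of 46 members, against 4.92% of all genes. None passed at an adjusted p under 0.05 with the quasi-likelihood test or limma voom, whereas 12 passed with the edgeR likelihood ratio test and 12 with DESeq2. The term was -2.62 for Ifit3 (adjusted p = 0.07017) and -1.23 for Eif2ak2 (0.05459). How far the closeness on ND, and with it these terms, rests on ICR ND replicate 2 was not tested. The count of members lower in ICR on CDAHFD was 23 without ICR CDAHFD replicate 3 and 26 without replicate 1 of both strains.

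**Figure D2:**
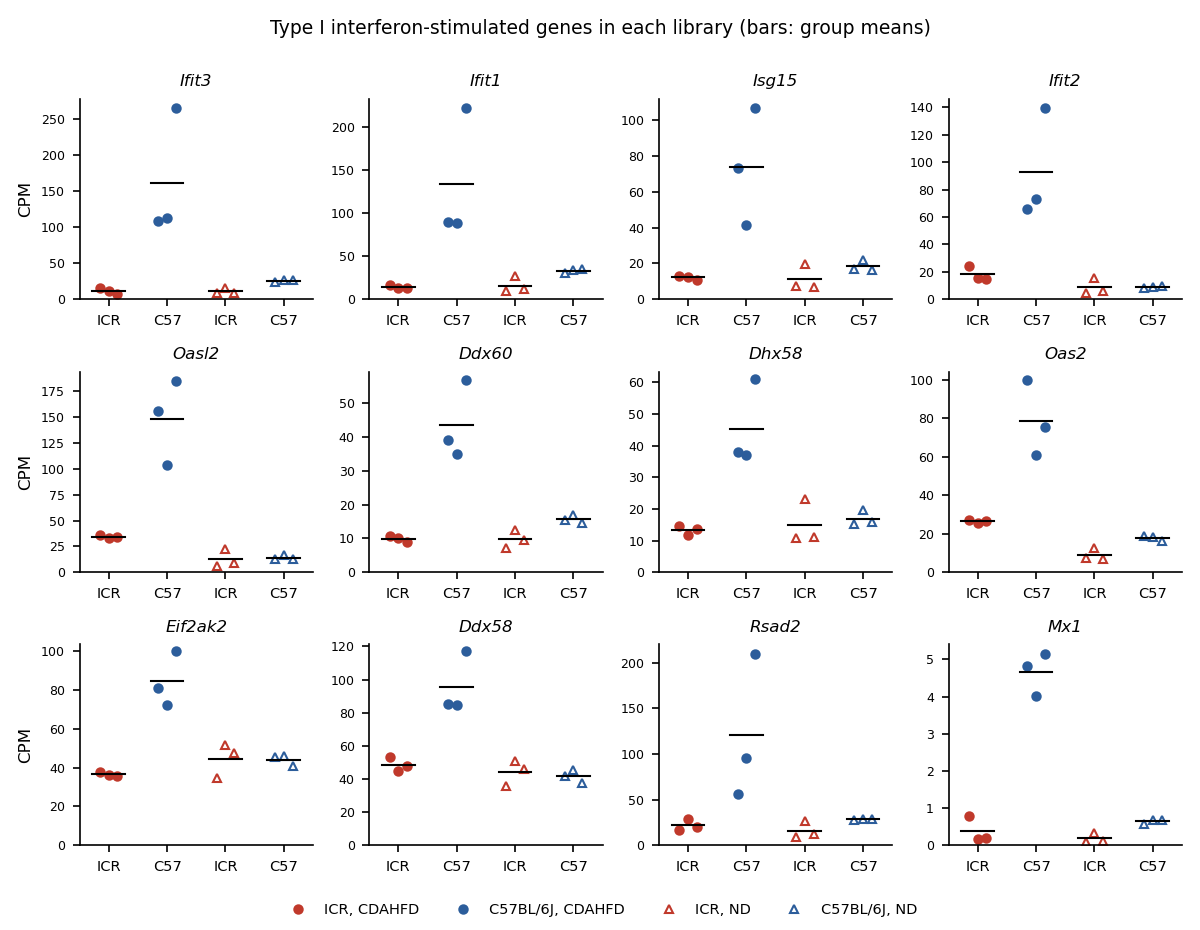
CPM of 12 type I interferon-stimulated genes in each library, on linear axes from 0, for ICR and C57BL/6J on CDAHFD (filled circles) and on ND (open triangles), with bars at group means. In every panel the 3 ICR CDAHFD libraries sit below the 3 C57BL/6J CDAHFD libraries, as for Isg15 at 10.9 to 13.2 CPM in ICR and 41.6 to 107 CPM in C57BL/6J, and the strains are closer on ND. Over the whole list, the ND library with the highest summed level was ICR replicate 2 (2051 CPM).

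Of interferon-gamma-induced GTPases and AIM2-like genes, 12 of 27 tested members were called lower in ICR, against 7.5% of all genes, and 1, Ifi202b, was called higher (median -1.055). The AIM2-like genes, which encode DNA-binding pyrin and HIN domain proteins, gave most of the calls. Pydc4 had 0.554, 0.403 and 0.276 CPM in ICR against 60.1, 38.7 and 45.3 CPM in C57BL/6J (-6.85 ± 0.38, adjusted p = 6.867e-07). Mnda had 1.56, 0.692 and 1.91 CPM in ICR against 29.1, 26.9 and 33.1 CPM in C57BL/6J (-4.42). Ifi204, which takes part in DNA sensing, had 16.9, 16.3 and 19.1 CPM in ICR against 76.6, 88.1 and 103 CPM in C57BL/6J (-2.36). Ifi202b thus ran against its neighbours. Guanylate-binding and immunity-related GTPases attack vacuoles of intracellular pathogens. Gbp3 (-2.04, adjusted p = 0.0279) and the very large GTPase Gvin1 (-4.17, 0.003875) were among those called, while Irgm1 (-1.06, 0.07068) and Irgm2 (-1.06, 0.1279) were not called. A further guanylate-binding GTPase was called with all libraries but in only 3 of the 12 fits that each left out 1 library (adjusted p of up to 0.141). On ND the summed level of the list was 1545, 5629 and 2057 CPM in ICR against 1594, 1617 and 1403 CPM in C57BL/6J, with 6 members higher and 4 lower in ICR. The Gbp3 call was lost in 5 of 12 fits, without C57BL/6J replicate 1 or 3 or any 1 ICR CDAHFD library (adjusted p of up to 0.104). Without replicate 1 of both strains on CDAHFD, 7 members were called lower.

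MHC class I genes, which present peptides to CD8 T cells, were called lower in ICR for 11 of 24 tested members, against 7.5% of all genes, and higher for 1. Their summed level was 5912, 5637 and 5288 CPM in ICR and 9268, 8501 and 8937 CPM in C57BL/6J. The classical gene H2-K1 had 1080, 878 and 647 CPM in ICR against 1751, 1717 and 1806 CPM in C57BL/6J (-1.02 ± 0.24, adjusted p = 0.01755). H2-Q7 (-2.09), H2-Q4 (-1.46), H2-T23 (-1.25), which presents leader peptides to NK receptors, and Nlrc5 (-1.08), the transactivator of class I genes, were called lower. H2-M2 was the member called higher (1.69, adjusted p = 0.02277). B2m, the light chain shared by class I molecules, had 2139, 1911 and 1819 CPM in ICR against 3612, 2893 and 2803 CPM in C57BL/6J (-0.67 ± 0.19, adjusted p = 0.03817). ND livers showed the same order in the sum, with 5912, 5938 and 5842 CPM in ICR and 10740, 10360 and 10250 CPM in C57BL/6J. By member the list was more mixed on ND, with 7 called lower and 4 higher, against 10.1% and 11.3% of all genes. The median fold change was -0.24 on ND and -0.732 on CDAHFD, and 6 members were called lower on both diets. H2-Q1 differed between the diets, with a fold change of -2.79 on CDAHFD and -0.62 on ND and a strain by diet term of -2.17 (adjusted p = 0.04435). Class I genes are highly polymorphic, and the part of sequence differences from the reference in these counts was not tested.

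The class I count was 7 without C57BL/6J replicate 3, 7 without ICR replicate 1, 6 without ICR replicate 2, 5 without ICR replicate 3 and 7 without replicate 1 of both strains. The H2-K1 call was lost without ICR replicate 2 (adjusted p = 0.0655) or ICR replicate 3 (0.0826) and that of Nlrc5 without ICR replicate 3 (0.0516). The H2-M2 call was lost in 5 of 12 fits, those without any 1 C57BL/6J CDAHFD library or ICR replicate 1 or 3 (up to 0.0854), and the B2m call in 8 of 12, each of the 6 CDAHFD libraries among them (up to 0.148).

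Several of these genes lie side by side in the genome. Runs of 12 neighbouring tested genes with at least 8 called merged into 8 regions, which held 116 tested genes, 80 of them called. The AIM2-like cluster on chromosome 1 (172.6 to 175.7 Mb, GRCm38) had 15 of 22 tested genes called, 3 higher and 12 lower in ICR. The Trim and beta-globin region on chromosome 7 (103.8 to 105.6 Mb) had 11 of 15 called, 5 higher and 6 lower. Among those lower were Trim12a, Trim30d (-3.65) and Trim34a (-2.62). The serpin region on chromosome 12 (103.8 to 104.2 Mb) had 8 of 10 called, 5 higher and 3 lower, and the major urinary protein region on chromosome 4 (60.2 to 62.1 Mb) 11 of 16, 6 higher and 5 lower. Of the 16 genes in that region, 14 have a near-identical copy, as do 3 of 22, 7 of 15 and 4 of 10 in the regions on chromosomes 1, 7 and 12. In the 4 regions named, 8, 6, 6 and 6 genes were called in the same direction on ND too. By whole chromosome, the share of tested genes called ran from 10.2% on X to 18.2% on chromosome 19.

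**Figure D3:**
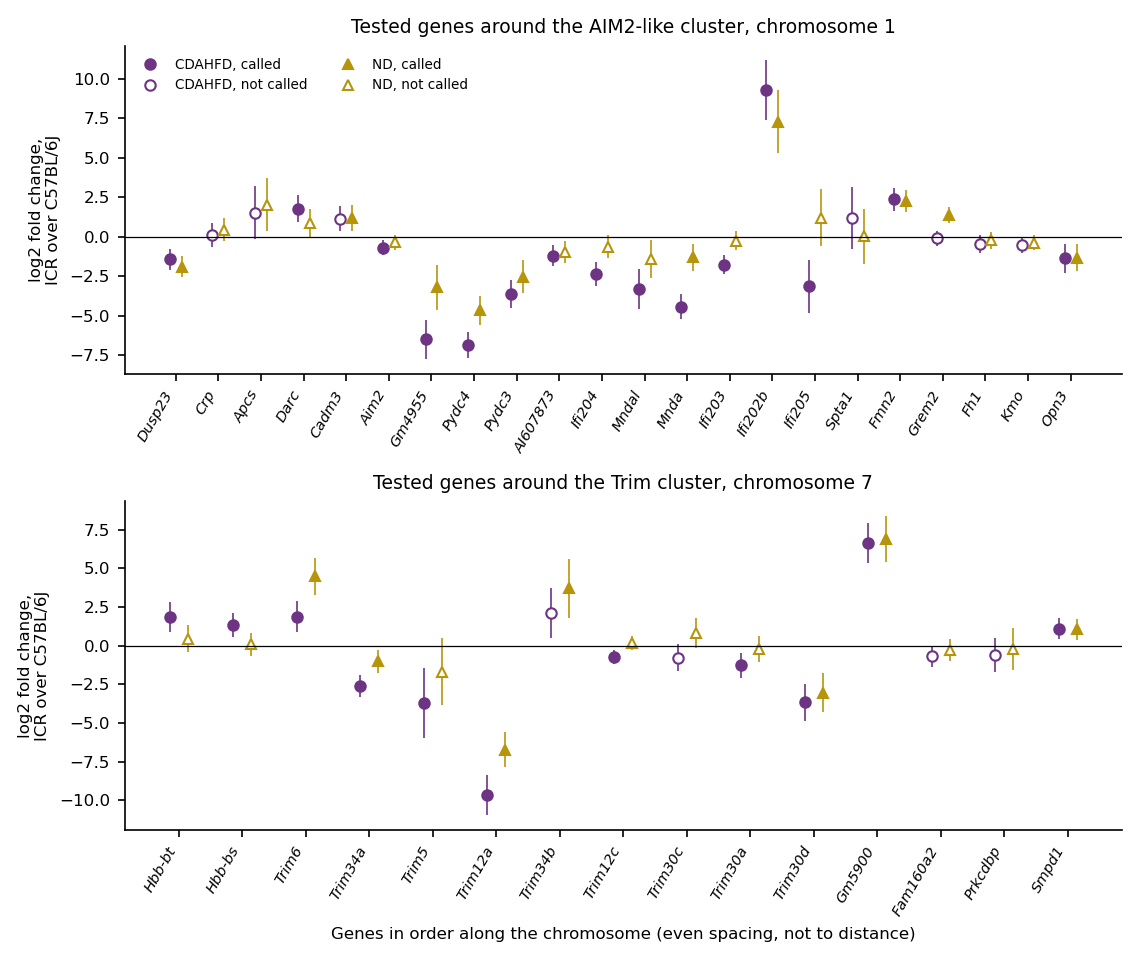
Log2 fold change of ICR over C57BL/6J on CDAHFD (circles) and on ND (triangles) for the tested genes around the AIM2-like cluster and the Trim cluster, in genomic order at even spacing, with 95% confidence intervals and filled symbols for called genes. In the AIM2-like cluster Pydc4 (-6.85) and Mnda (-4.42) lie below 0 and Ifi202b (9.29) above it, and in the Trim cluster Trim12a lies at -9.64.

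Genes with sex-biased expression in mouse liver, most of them governed by the pulsatile growth hormone of males, differed between the strains in both directions. Of 48 tested members 13 were higher and 12 lower in ICR. Cyp4a12a, a male-biased fatty acid hydroxylase, had 244, 287 and 224 CPM in ICR against 39.5, 43.2 and 43 CPM in C57BL/6J (2.59 ± 0.26, adjusted p = 9.585e-05). The major urinary proteins, which carry pheromones, split. Mup9 had 119, 396 and 206 CPM in ICR against 19.9, 18.4 and 14.5 CPM in C57BL/6J (3.77), whereas Mup20, also called darcin, had 590, 652 and 1007 CPM in ICR against 2867, 2559 and 2282 CPM in C57BL/6J (-1.78 ± 0.27, adjusted p = 0.002109). The steroid-metabolizing Hsd3b5 had 8.2, 31.6 and 18.6 CPM in ICR against 1.79, 1.53 and 1.67 CPM in C57BL/6J (3.54), and on ND averaged 418 CPM in ICR and 301 CPM in C57BL/6J. Serpina1e (-2.60), an alpha-1-antitrypsin, was lower and Slco1a1 (2.10), an anion transporter, higher. The Mup genes are near-identical to each other, so that the sharing of reads among them leaves single members uncertain.

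Drug-metabolizing cytochrome P450 genes were likewise split, with 8 of 54 higher and 10 lower in ICR. Within the Cyp2c family of chromosome 19, Cyp2c39 had 101, 66.6 and 88.7 CPM in ICR against 2.96, 3.17 and 1.81 CPM in C57BL/6J (5.01 ± 0.44, adjusted p = 3.548e-05). Cyp2c50 had 20, 54 and 14.7 CPM in ICR against 268, 359 and 228 CPM in C57BL/6J (-3.27 ± 0.49, adjusted p = 0.001731), and Cyp2c37 was lower as well (-3.04). On ND the fold change was 5.29 for Cyp2c39 and -2.81 for Cyp2c37. Of the conjugating enzymes 7 of 58 were higher and 7 lower. Ugt1a9, a drug glucuronosyltransferase isoform, was higher (3.31). The glutathione transferase Gsta1 (-3.88) and the estrogen sulfotransferase Sult1e1 (-3.80) were lower. Of carboxylesterases and aldehyde and aldo-keto reductases 2 of 47 were higher and 5 lower, against 3 to 6 higher and 6 to 9 lower with the other 3 tests. The counts without replicate 1 of both strains were 7 higher and 9 lower for the P450 genes, 6 and 4 for the conjugating enzymes and 1 and 4 for the esterases and reductases. Of NRF2 and glutathione genes 2 of 29 were lower, and 1 was higher with the likelihood ratio test, DESeq2 and voom but none with the quasi-likelihood test, which gave 2 at an unadjusted p under 0.05. Nqo1, a quinone reductase, had 3.72, 7.29 and 4.75 CPM in ICR and 15.1, 17.1 and 17.4 CPM in C57BL/6J (-1.65). Without replicate 1 of both strains 1 member of that list was lower.

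Of 31 tested genes of the unfolded protein response, amino acid stress and p53, 8 were called higher in ICR, against 8.13% of all genes, and the list had a median fold change of 0.596. The count was 3, close to that share, without C57BL/6J replicate 1, 2 or 3 or ICR replicate 2 or 3. None was called lower by any of the 4 tests, and 1 was lower at an unadjusted p under 0.05. Fgf21, a hepatokine induced by amino acid lack through ATF4, had 119, 70 and 41.5 CPM in ICR against 12.2, 12.4 and 11.8 CPM in C57BL/6J (2.67 ± 0.55, adjusted p = 0.01022). Dnajb9, a co-chaperone of the endoplasmic reticulum, had 84.5, 209 and 183 CPM in ICR against 44.3, 64 and 54.9 CPM in C57BL/6J (1.55 ± 0.28, adjusted p = 0.00504). Chac1, which degrades glutathione, had 4.27, 9.85 and 6.11 CPM in ICR against 2.07, 2.01 and 1.12 CPM in C57BL/6J (1.96 ± 0.40, adjusted p = 0.009391). Hyou1 (1.32), Trp53inp1 (1.11) and Mthfd2 (1.02) were also called, each losing the call in 5 of 12 fits, those without any 1 C57BL/6J CDAHFD library or ICR replicate 2 or 3 (adjusted p of up to 0.0883, 0.108 and 0.0819). In 16 of the 31 genes every ICR library was above every C57BL/6J library, against 22.3% of all genes. On ND 3 members were higher and 3 lower, and the strain by diet term was positive at an unadjusted p under 0.05 in 11 members, against 4.57% of all genes, with none past an adjusted p under 0.05 in the quasi-likelihood test or voom and 1 in the likelihood ratio test and DESeq2.

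Hspa5, a chaperone gene of the unfolded protein response, had 1241, 1907 and 1942 CPM in ICR and 1172, 916 and 698 CPM in C57BL/6J (0.87 ± 0.27, adjusted p = 0.04781). The lowest ICR library was thus close to the highest C57BL/6J library. Its promoter is shown because it carries the endoplasmic reticulum stress response element, in capitals (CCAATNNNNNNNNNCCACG), at 65 bases before the start.
Hspa5, chr2:34771920-34772089, plus strand: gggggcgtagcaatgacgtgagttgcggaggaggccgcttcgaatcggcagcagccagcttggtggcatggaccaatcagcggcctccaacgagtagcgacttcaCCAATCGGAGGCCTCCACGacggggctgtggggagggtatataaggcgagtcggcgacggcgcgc
This motif was found in 1 of 6 called stress genes with a RefSeq promoter, which is Hspa5 itself, and in 0.185% of tested genes. As Hspa5 is shown because it carries the motif, nothing is concluded from these shares. The count of stress genes called higher was 4 without replicate 1 of both strains, and 5 with scaling by library size only. The Hspa5 call was lost in 8 of 12 fits, all but those without ICR CDAHFD replicate 1 or any 1 ICR ND library, with adjusted p of up to 0.159 (without ICR replicate 3).

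**Figure D4:**
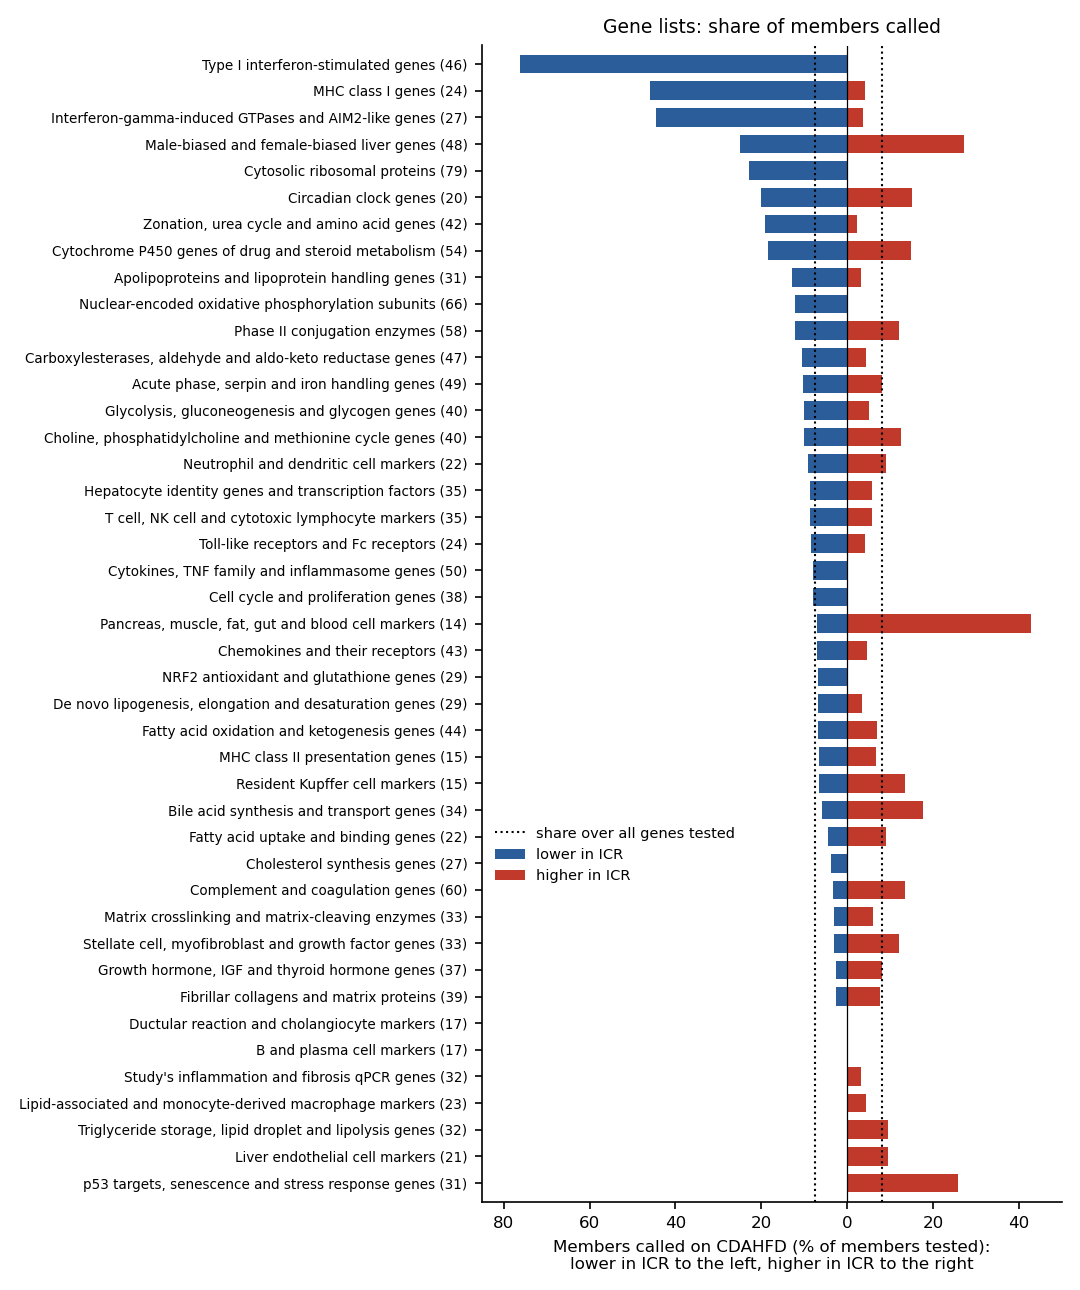
Share of the tested members of each gene list (number tested in parentheses) called lower in ICR, to the left, and higher in ICR, to the right, on CDAHFD. The dotted lines mark the shares over all genes tested, 7.5% lower and 8.13% higher, and the bars of type I interferon-stimulated genes (35 of 46 lower) and of stress response genes (8 of 31 higher) reach past them.

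In amino acid metabolism and zonation, 8 of 42 members were lower in ICR, against 7.5% of all genes, and 1 was higher. Oat, ornithine aminotransferase of pericentral hepatocytes, had 126, 196 and 204 CPM in ICR against 551, 792 and 615 CPM in C57BL/6J (-1.90 ± 0.26, adjusted p = 0.000881), and the glutamate transporter Slc1a2, also pericentral, had 50.6, 63.8 and 71.4 CPM in ICR against 162, 201 and 192 CPM in C57BL/6J (-1.58 ± 0.23). Proline dehydrogenase Prodh (-0.96) was lower too. The other 5 called lower (Arg1, Gls2, Got1, Notum and Rnf43) had fold changes of -1.38 (Got1) to -0.61 (Rnf43), and each lost the call in 2 to 8 of 12 fits, in all 5 without ICR CDAHFD replicate 2 (adjusted p of up to 0.153 over all fits). On ND Oat was lower by -1.71 and Slc1a2 was not called (-0.22, adjusted p = 0.5285). The count of members lower was 3 without ICR replicate 2, 4 without ICR replicate 1, 5 without ICR replicate 3 and 5 without C57BL/6J replicate 2.

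In the pathway that the diet acts on, 5 of 40 choline, phosphatidylcholine and methionine cycle genes were called higher and 4 lower in ICR, shares near the 8.13% and 7.5% of all genes, and 2 were higher and 2 lower without replicate 1 of both strains. The choline transporter Slc44a1 had 17.9, 20.2 and 21.6 CPM in ICR against 5.31, 10.5 and 12.2 CPM in C57BL/6J (1.09 ± 0.24, adjusted p = 0.0122). Gatm, the first enzyme of creatine synthesis, had 81.7, 52.1 and 55.8 CPM in ICR against 25.8, 25.8 and 34.9 CPM in C57BL/6J (1.13), a call that was lost without C57BL/6J replicate 1 (adjusted p = 0.0622) or 2 (0.0538). Nnmt, a nicotinamide methyltransferase, had 3.14, 3.14 and 2.65 CPM in ICR against 26.5, 67.8 and 38.8 CPM in C57BL/6J (-3.90, adjusted p = 0.03422), a call lost without any 1 of the 6 CDAHFD libraries (up to 0.116). Pemt, which makes phosphatidylcholine by methylation, had a log2 fold change of 0.13 with a 95% confidence interval of -0.17 to 0.42, and Bhmt, which remethylates homocysteine, of -0.55 (-1.29 to 0.18).

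Most genes of lipid metabolism did not pass the test. Of lipogenesis, elongation and desaturation genes 1 of 29 was higher (Insig2, a retention factor for SREBP, 516, 371 and 396 CPM in ICR against 201, 196 and 208 CPM in C57BL/6J) and 2 lower. Of storage and lipolysis genes 3 of 32 were higher, of uptake genes 2 of 22 higher and 1 lower, of oxidation and ketogenesis genes 3 of 44 higher and 3 lower, and of cholesterol synthesis genes 1 of 27 lower. Plin2, the coat protein of lipid droplets, had 1276, 842 and 832 CPM in ICR and 445, 956 and 1089 CPM in C57BL/6J, and the groups overlapped (0.24). Fasn, fatty acid synthase, differed by 0.06 (95% confidence interval -0.70 to 0.82) and Cpt1a by -0.24 (-0.91 to 0.42). Of apolipoprotein and lipoprotein genes 1 of 31 was higher and 4 lower, all 4 of the Apol family, with Apol9b at 56.3, 63.9 and 60.8 CPM in ICR and 151, 168 and 213 CPM in C57BL/6J (-1.56 ± 0.22). Of glucose metabolism genes 2 of 40 were higher and 4 lower. After replicate 1 of both strains was left out, edgeR's quasi-likelihood test called 0 storage genes higher (5 below 0.05 before adjustment), 1 uptake gene higher and 1 lower, 1 oxidation gene higher and 5 lower, 0 cholesterol genes lower (3 before adjustment) and 1 glucose gene higher and 3 lower. With all libraries the likelihood ratio test, DESeq2 and voom called 5, 4 and 4 storage genes higher and 3 cholesterol genes lower each.

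Of bile acid genes 6 of 34 were higher and 2 lower, against 2 and 1 without replicate 1 of both strains. Fgfr4, the receptor through which intestinal FGF15 lowers bile acid synthesis, had 57.4, 64.6 and 56.8 CPM in ICR against 33.5, 28.6 and 25.3 CPM in C57BL/6J (1.03 ± 0.12, adjusted p = 0.0004016), with a similar difference on ND (0.81). Cyp7a1, the rate-limiting enzyme of the classical pathway, differed by -0.70 (-1.86 to 0.45). In the growth hormone and IGF list 3 of 37 were higher and 1 lower, and Igfbp1, an insulin-repressed IGF-binding protein, had 288, 237 and 316 CPM in ICR against 97.8, 79.1 and 86 CPM in C57BL/6J (1.68 ± 0.25, adjusted p = 0.001865). Of hepatocyte identity genes 2 of 35 were higher and 3 lower. Complement and coagulation genes were higher in 8 of 60 and lower in 2 (15, 16 and 12 higher with the likelihood ratio test, DESeq2 and voom), and acute phase, serpin and iron genes higher in 4 of 49 and lower in 5. There the alpha-1-antichymotrypsin relative Serpina3m had 526, 456 and 589 CPM in ICR against 52.1, 132 and 116 CPM in C57BL/6J (2.39), and the alpha-1-antitrypsin gene Serpina1d had 86.5, 164 and 147 CPM in ICR against 329, 767 and 540 CPM in C57BL/6J (-2.04).

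Of the circadian clock genes 3 of 20 were higher and 4 lower in ICR, and 1 was higher and 1 lower without replicate 1 of both strains. Among those lower, Tef had 27.1, 62.4 and 59.4 CPM in ICR against 124, 154 and 140 CPM in C57BL/6J (-1.49 ± 0.36, adjusted p = 0.01948). Per3 had 6.12, 11.6 and 10.4 CPM in ICR against 32.7, 45.8 and 40.3 CPM in C57BL/6J (-2.08). Nfil3, a repressor of the same target sites as Tef, had 35.2, 30.6 and 27.3 CPM in ICR against 12.4, 14.1 and 13.4 CPM in C57BL/6J (1.22 ± 0.18, adjusted p = 0.001502). Dbp was lower as well (-2.50, adjusted p = 0.02512). The hour of dissection was not found in the labels or methods, so that strain and time of day cannot be told apart. The Per3 call was lost without ICR replicate 3 (adjusted p = 0.0556), and that of Dbp without C57BL/6J replicate 2 (0.0556) or 3 (0.056) or ICR replicate 2 (0.0547) or 3 (0.0715).

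Few markers of fibrosis and inflammation were called. Of 39 collagens and matrix proteins 3 were higher (Col4a2, Col18a1 and Nid1, all of the basement membrane), about the 8.13% of all genes, and 1 was lower (the proteoglycan Fmod, 1.34, 0.749 and 0.857 CPM in ICR against 15.3, 6.45 and 12.5 CPM in C57BL/6J). Col1a1, the main fibrillar collagen, had 369, 272 and 217 CPM in ICR and 381, 247 and 379 CPM in C57BL/6J, a log2 fold change of -0.23 with a 95% confidence interval of -0.76 to 0.30. Col3a1 differed by -0.17 (-0.84 to 0.50), Timp1 by -0.60 (-1.44 to 0.24) and Lox by -0.06 (-0.85 to 0.74). A difference of 1 log2 unit is outside the intervals of Col1a1, Col3a1 and Lox but not of Timp1. The Col18a1 and Nid1 calls were lost in 9 of 12 fits and that of Col4a2 in 5 (adjusted p of up to 0.149, 0.16 and 0.122). Without replicate 1 of both strains, edgeR's quasi-likelihood test called 0 of the matrix list higher, with 1 below 0.05 before adjustment, and 3 lower. With all libraries, the likelihood ratio test, DESeq2 and voom called 6, 7 and 6 higher. The quasi-likelihood test then had 10 higher at an unadjusted p under 0.05, against 16.3% of all genes, and 3 lower, against 15.9%. In 13 of the 39 every ICR library was above every C57BL/6J library, against 22.3% of all genes. In 4 every ICR library was below, against 22.2%.

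Of crosslinking and matrix-cleaving enzymes 2 of 33 were higher and 1 lower. Among stellate cell and growth factor genes 4 of 33 were higher and 1 lower, Reln, a stellate cell glycoprotein, with 147, 172 and 179 CPM in ICR against 70.2, 65.7 and 70.1 CPM in C57BL/6J (1.27 ± 0.26, adjusted p = 0.009087). The stellate marker Lrat differed by 0.08 (-0.46 to 0.62). In a list of 32 inflammation and fibrosis genes measured by qPCR in mice of this design, Col4a2 alone was called (0.75). That list was not chosen independently of these samples. Il1b had 12.1, 20.3 and 22.7 CPM in ICR and 7.19, 9.22 and 13.1 CPM in C57BL/6J (adjusted p = 0.1264), Tnf 3.16, 5.22 and 6.27 CPM and 7.73, 5.92 and 7.67 CPM, and Ccl2 33.9, 24.1 and 18.7 CPM and 22.4, 16.3 and 21.2 CPM.

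Of 23 markers of lipid-associated and monocyte-derived macrophages, which gather around dying steatotic hepatocytes, Itgax alone was called (0.68, adjusted p = 0.04781), and it lost the call in 9 of 12 fits (up to 0.195). Their summed level was 13670, 15300 and 17240 CPM in ICR and 13560, 16140 and 15330 CPM in C57BL/6J. It was no lower in C57BL/6J on ND (17400 to 19540 CPM), so the sum does not track most of these markers. The mean log2 level of members, relative to each gene's mean over the 12 libraries, was -2.11 to -1.37 on ND. On CDAHFD this mean was 1.47, 1.54 and 2.05 in ICR and 1.97, 1.71 and 1.89 in C57BL/6J. Gpnmb ranged from 157 to 1160 CPM in ICR and from 332 to 488 CPM in C57BL/6J, and Trem2 differed by -0.54 (-1.23 to 0.15). Of 15 resident Kupffer cell markers Id3 was lower (-0.83), and C6 (1.02) and Timd4 (2.29) were higher, calls lost in 5 and 6 of 12 fits (up to 0.103 and 0.113). Clec4f differed by -0.05 (95% confidence interval -1.37 to 1.27) and was low in replicate 1 of both strains (29.3, 134 and 115 CPM in ICR and 20.1, 138 and 130 CPM in C57BL/6J).

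Of other cell markers, 2 of 35 T and NK cell genes were higher and 3 lower, 2 of 22 neutrophil and dendritic cell genes higher and 2 lower, and 2 of 21 endothelial genes higher. Fold changes were positive in 18 of the 22 neutrophil and dendritic cell genes and negative in 4. In 10 every ICR library was above every C57BL/6J library, against 22.3% of all genes, and in 4 below, against 22.2%. This list pools 2 cell types, and its counts do not describe either of them alone. The likelihood ratio test, DESeq2 and voom called 9, 9 and 10 T and NK cell genes lower, and 4, 3 and 5 neutrophil and dendritic cell genes higher with 4 lower each. Of the T and NK cell genes, 26 had negative and 9 positive fold changes (median -0.51). In 15 every ICR library was below every C57BL/6J library, against 22.2% of all genes, and in 5 above, against 22.3%. In the quasi-likelihood test 11 were lower at an unadjusted p under 0.05, against 15.9%, and 3 higher, against 16.3%. With replicate 1 of both strains left out, edgeR's quasi-likelihood test called 0 T and NK cell genes higher (4 below 0.05 before adjustment) and 1 lower, and 0 neutrophil and dendritic cell genes higher (2 before adjustment) and 1 lower. Of 17 B and plasma cell genes none passed with edgeR's quasi-likelihood test or voom, 2 had an unadjusted p under 0.05, and 1 passed with the likelihood ratio test and 1 with DESeq2. Of 17 ductular genes none passed with edgeR's quasi-likelihood or likelihood ratio test or DESeq2, 1 had an unadjusted p under 0.05, and 1 passed with voom. Yet 16 of the 17 had negative fold changes, with a median of -0.588 against -0.012 over all genes. Without replicate 1 of both strains, edgeR's quasi-likelihood test called 3 lower and had 9 lower at an unadjusted p under 0.05. Krt19 had 9.17, 3.14 and 1.88 CPM in ICR and 17.5, 5.73 and 8.41 CPM in C57BL/6J (-1.16, -2.33 to 0.02).

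Immune signalling genes were called in small numbers. Among 43 chemokine genes and receptors 2 were higher and 3 lower (1 and 1 without replicate 1 of both strains), with the eotaxin receptor Ccr3 at 5.75, 11.7 and 14.9 CPM in ICR and 0.284, 0.634 and 0.603 CPM in C57BL/6J (4.39 ± 0.50, adjusted p = 0.00025). On ND Ccr3 differed by 7.37. Of 50 cytokine and inflammasome genes 4 were lower, among them Il18, which caspase-1 matures, with 7.51, 10.7 and 10 CPM in ICR and 16.3, 15.9 and 14.5 CPM in C57BL/6J (-0.72 ± 0.15, adjusted p = 0.01086), and the inflammasome sensor Nlrp1b, known to vary between mouse strains (-4.24). Toll-like and Fc receptor genes gave 1 higher and 2 lower of 24, MHC class II genes 1 and 1 of 15, and cell cycle genes 3 lower of 38. In the cell cycle list Pttg1, securin, had 7.83, 8.64 and 6.08 CPM in ICR against 35, 32.3 and 33.4 CPM in C57BL/6J (-2.16) and differed likewise on ND (-3.13).

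Of 14 tested markers of blood and of other tissues 6 were higher and 1 lower in ICR, against 3 and 1 without replicate 1 of both strains. The globin gene Hba-a1 had 21.2, 27.5 and 43.1 CPM in ICR against 8.36, 9.3 and 9.83 CPM in C57BL/6J (1.74), and the globin genes Hbb-bs (1.33) and Hbb-bt (1.86) and the erythroid heme enzyme Alas2 (1.94) were called higher too, losing the call in 5, 2 and 8 of 12 fits (adjusted p of up to 0.127, 0.0672 and 0.149), whereas Hba-a2, a copy of Hba-a1, was lower (-3.41). The pancreatic genes Prss2, Cpa1, Cpb1, Pnlip, Ctrb1 and Reg1 held at most 8 counts in either group of 3 libraries. The part of blood in the other differences was not tested.

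Ribosomal protein genes were called lower in ICR in 18 of 79 tested members, against 7.5% of all genes, with a median fold change of -0.391. In 64 members the ICR libraries were all below the C57BL/6J libraries, against 22.2% of all genes, and on ND 57 were called lower, against 10.1%. Rps2, of the small subunit, had 21.6, 15.8 and 14.5 CPM in ICR against 315, 384 and 369 CPM in C57BL/6J (-4.36 ± 0.18, adjusted p = 3.678e-08), and Rpl26, of the large subunit, had 23.9, 20.1 and 20.6 CPM in ICR against 393, 293 and 267 CPM in C57BL/6J (-3.88). Genes of oxidative phosphorylation were lower in 8 of 66, against 7.5% of all genes (43 on ND, against 10.1%), and in 0 without replicate 1 of both strains, where 14 had an unadjusted p under 0.05. With all libraries the likelihood ratio test, DESeq2 and voom called 12, 17 and 9 lower, and no member of either list was called higher by the 4 tests. Ribosomal protein genes have many processed copies in the genome. Their part in these counts was not tested. The ribosomal count was 12 without replicate 1 of both strains, 10 without ICR CDAHFD replicate 2, 10 without ICR CDAHFD replicate 3, 34 without ICR ND replicate 1, 35 with the replicate number as a block and 37 with DESeq2.

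Genes with a near-identical copy elsewhere (at least 95% identity over at least 80% of the coding sequence) were called in 23.2% of 1037 cases, 78 higher and 163 lower in ICR, and genes without one in 14.9% of 12631, 1030 higher and 857 lower. For 7 pairs of a gene and its copy the sum was closer between the strains than the parts, or the copy alone differed. Rnps1 averaged 11.8 ± 1.11 CPM in ICR and 34.5 ± 5.4 CPM in C57BL/6J (SD, n = 3 each), its copy Gm9825 20.7 ± 2.31 and 0.384 ± 0.119 CPM, and their sum 32.5 ± 3.41 and 34.8 ± 5.3 CPM. For glycolytic Eno1 and its copy Gm5506 the sum averaged 108 ± 2.03 CPM in ICR and 127 ± 20.1 CPM in C57BL/6J, with Eno1 alone at 64.6 and 126 CPM. For Ahcy, which hydrolyses S-adenosylhomocysteine, the sum with Gm4737 was 258 ± 34.4 CPM in ICR and 439 ± 181 CPM in C57BL/6J, a ratio of 0.587 against 0.251 for Ahcy alone. The complement protease pair C1ra and C1rb differed mostly in C1rb, with 59, 65.8 and 65.2 CPM in ICR and 0.853, 1.03 and 1.42 CPM in C57BL/6J. These pairs were chosen after their values were seen, and whether reads or genes account for them was not tested.

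**Figure D5:**
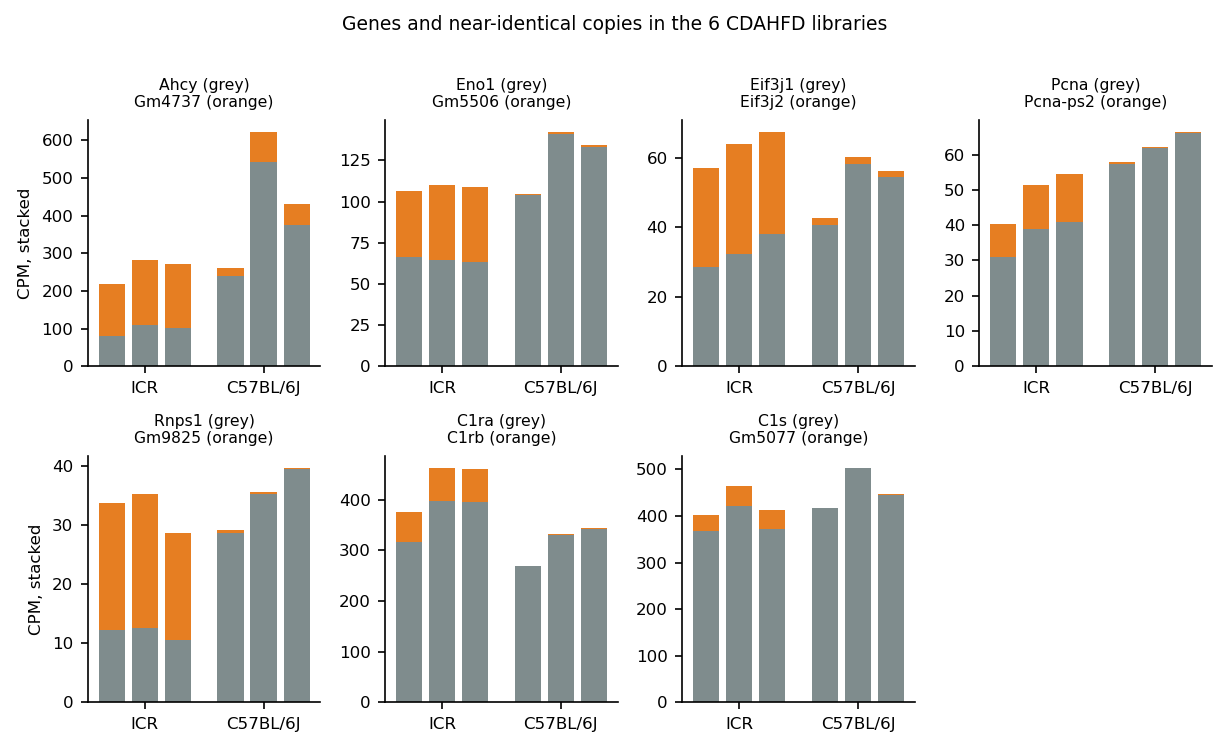
Stacked CPM of 7 genes (grey) and their near-identical copies (orange) in each of the 3 ICR and 3 C57BL/6J libraries on CDAHFD, on linear axes from 0. Copies take a visible part of each ICR bar and little of most C57BL/6J bars, as for Gm5506 at 43.8 CPM in ICR and 1.08 CPM in C57BL/6J.

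The strain differences on CDAHFD were in good part present on ND, in libraries of other mice. Of the 2982 genes (21.5%) called on ND, 1173 were called in the same direction on CDAHFD, which is 54.0% of the CDAHFD calls and 39.3% of the ND calls, and 6 were called in opposite directions. Of CDAHFD calls, 92.7% of those higher and 92.8% of those lower in ICR had the same sign on ND. At an adjusted p under 0.05 the strain difference was unlike on the 2 diets for 25 genes (0.18%), with a positive term in 17 (0.122%) and a negative one in 8 (0.0575%). Calml4, a calmodulin-like protein, had 38.9, 32.4 and 27.5 CPM in ICR against 5.2, 4.6 and 3.53 CPM in C57BL/6J on CDAHFD (2.89 ± 0.23, adjusted p = 1.502e-05) and averaged 1.46 CPM in ICR and 1.31 CPM in C57BL/6J on ND. D17H6S56E-5 had 9.12, 7.84 and 6.14 CPM in ICR against 143, 139 and 243 CPM in C57BL/6J on CDAHFD, and averaged 4.39 and 9.18 CPM on ND. Dio1, which activates thyroid hormone, showed the reverse, with 30.4, 91.3 and 55.8 CPM in ICR and 67, 94.4 and 105 CPM in C57BL/6J on CDAHFD (-0.59, adjusted p = 0.3499) and averages of 3.68 CPM in ICR and 148 CPM in C57BL/6J on ND (-5.34).

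By the SD of 3 libraries, within-strain spread was not larger in the outbred stock over most genes. The median SD of log2 CPM over 3 libraries was 0.173 in ICR and 0.229 in C57BL/6J, and 39.8% of genes had the larger SD in ICR. Yet 418 genes in ICR and 242 in C57BL/6J had an SD over 1. Distances between libraries (root mean square difference of log2 CPM over genes) were 0.44 to 0.607 within ICR and 0.378 to 0.622 within C57BL/6J. The closest pair was thus in C57BL/6J. Every SD includes replicate 1, which stood apart in both strains, and its part in the spread was not tested. Among the widest in ICR were Cyp1b1, a steroid and xenobiotic hydroxylase, at 24.1, 0.231 and 0.332 CPM in ICR and 20.7, 17 and 21.5 CPM in C57BL/6J, and Ces2h, a carboxylesterase, at 36.1, 1.21 and 39.1 CPM in ICR and 1.31, 0.713 and 0.822 CPM in C57BL/6J. Among the widest in C57BL/6J were Kupffer cell genes, with the scavenger receptor Marco at 4.4, 29.9 and 33.2 CPM in ICR and 2.7, 38.4 and 67.5 CPM in C57BL/6J, low in replicate 1 of both strains.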

How the data were processed

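Liver RNA was sequenced in 12 libraries. Per the study's methods and the submitters' processing notes, the authors trimmed reads with fastp 0.23.4, aligned them with HISAT2 2.2.1 and counted them per gene with featureCounts 2.0.6. The notes name the build mm39 and the methods mm10, and the methods describe ribosomal RNA depletion where the labels describe mRNA isolation. Strand setting, handling of reads that map to several places and any batch of the libraries were not found in the labels or methods, although the study names a batch correction for a heatmap. The deposited table holds unnormalized counts of protein-coding genes, which were used here. Its 12 FPKM and 12 CPM columns were not used. After 3 repeated lines were dropped, 17710 genes remained.

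The counts were then tested with edgeR 4.0.16 under R 4.3.3. Genes passing filterByExpr (count minimum 10, total minimum 15) were scaled by TMM and fitted in a model of 4 groups and 12 libraries, so that all groups share 1 estimate of the spread. The quasi-likelihood F test was used, with Benjamini-Hochberg adjustment over all 13901 genes. A positive log2 fold change is higher in ICR. SE was taken from the test statistic, and CPM rest on TMM-scaled library sizes. Log2 CPM for spread had a prior count of 2. Counts sum over transcript length, so levels were not compared between genes. The fits were tested on simulated data.

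The 44 gene lists, their members and the genes named were chosen with earlier results of these data known. Genes were named by rule, namely the 12 largest rises and falls among called genes with a mean of at least 5 CPM in 1 group and no overlap (clone and predicted gene symbols passed over), from each list up to 4 members by smallest p and any other needed to describe it, the 8 most abundant called genes, the 8 genes with the smallest interaction p, and the study's qPCR genes and known C57BL/6J alleles. Trim34a and genes named for their spread, their copies or their neighbours were chosen after their values were seen. Positions are those of GENCODE vM21 (GRCm38), matched by gene ID for 17505 genes, and promoters those of RefSeq (GRCm38.p6). Copies were found with BLAST+ 2.17.0 among coding sequences. Alternatives were other scalings, filters, thresholds and tests (DESeq2 1.42.0, limma 3.58.1), the replicate number as a block, the 6 CDAHFD libraries alone and leaving out each library.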

Additional observations from a re-analysis of the deposited data

Results flagged for a closer look

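The strain difference was unlike on the 2 diets, by the strain by diet term of the fit across all genes (edgeR's quasi-likelihood test, adjusted p under 0.05), for 12 of the genes named or listed. Groups of 3 libraries were too small for a test of single libraries within a group. The term was 7.2 on the log2 scale for Acpp, an acid phosphatase, which averaged 0.144 CPM in ICR and 20.6 CPM in C57BL/6J on ND and had 0.554, 0.98 and 1.11 CPM in ICR and 0.682, 1.06 and 0.767 CPM in C57BL/6J on CDAHFD. It was 4.75 for Dio1, 3.6 for the transporter Slc35f2, 2.73 for the Rac exchange factor Tiam2 and -4.75 for the cholesterol hydroxylase Cyp46a1, which were called on ND and not on CDAHFD. Cyp46a1 averaged 110 CPM in ICR and 4.35 CPM in C57BL/6J on ND.

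It was 2.74 for Calml4, -3.44 for D17H6S56E-5, -2.29 for Rpl26, -3.12 for Mnda and -2.17 for H2-Q1, each called on CDAHFD with the larger difference there. It was 3.83 for Gm6484, with 42.6, 39.1 and 62.1 CPM in ICR and 9.75, 19.6 and 17.3 CPM in C57BL/6J on CDAHFD and the opposite direction on ND (-2.21). The Gm6484 call on CDAHFD was lost without C57BL/6J replicate 1 or 3 or ICR replicate 2 or 3 (adjusted p of up to 0.0972). The term was 2.96 for Igj, the joining chain of polymeric immunoglobulins, which was lower in ICR on ND (-1.88) and had 3.82, 7.95 and 9.26 CPM in ICR and 4.72, 2.03 and 3.15 CPM in C57BL/6J on CDAHFD.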

How the results depend on the processing

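Of the 128 genes named in the text that were called, none reversed direction in an alternative that could be fitted, and 94 were called in every fit that left out 1 library. Those fits gave 387 to 1490 genes higher and 373 to 1378 lower in ICR on CDAHFD, 1255 to 4234 called on ND and 6 to 136 for the strain by diet term, most of them without ICR ND replicate 1. They gave 23 to 42 interferon-stimulated, 5 to 15 class I, 3 to 9 stress, 3 to 9 zonation and 10 to 34 ribosomal genes. Thresholds moved the counts to 629 higher (an unadjusted p under 0.05 and 2-fold), 281 and 277 (adjusted p under 0.01) and 460 and 480 (adjusted and 2-fold). DESeq2 called 1626 genes lower, 37 ribosomal genes and 241 for the strain by diet term, for which the likelihood ratio test called 232, voom 5, no filter on low counts 41 and library size only 14. Library size only left 5 stress genes, and it moved the median of all genes to -0.111, against -0.012 with TMM and -0.023 with RLE size factors. Of genes near absence in 1 strain, 2 had no count at all. Without replicate 1 of both strains, an alternative chosen after seeing the data, 423 genes were higher, 497 lower, 7 class I genes lower and 4 stress genes higher.

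The replicate numbers are shared by the groups, but nothing says that they pair mice. Same-numbered CDAHFD libraries deviated together by 0.40, 0.31 and 0.09 (correlation of deviations from group means over genes), and ICR replicate 3 was closer to C57BL/6J replicate 2 (0.21). With the replicate block, 35 ribosomal genes and 12 for the strain by diet term passed. In the 6 CDAHFD libraries alone with the block, 1959 genes were higher and 2067 lower, with 17 class I and 40 ribosomal genes lower. With 3 libraries per group, real differences may have gone uncalled. In simulated counts the CDAHFD contrast called 43% of 2-fold and 80% of 4-fold changes, with 7 false calls. There 200 genes were changed, 13716 were tested, and all others had the same mean in every group. In the data 15.6% of genes were called. As the adjustment depends on how many genes differ, these shares do not give the detection rate of the real contrast. An uncalled gene, or an interval that spans 0, does not show equal levels.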

Other observations

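Among the 8 most abundant called genes that have not been described, Mug1, an alpha-2-macroglobulin-like protease inhibitor secreted by mouse liver, had 2399, 3863 and 4544 CPM in ICR and 777, 1875 and 1679 CPM in C57BL/6J (log2 fold change 1.32, edgeR adjusted p = 0.04283). Crot, a peroxisomal carnitine octanoyltransferase, had 2246, 1900 and 1655 CPM in ICR and 759, 1105 and 1050 CPM in C57BL/6J (0.99). Ces1c, a plasma carboxylesterase of mice (-0.76), and the mitochondrially encoded mt-Nd4 (-1.05) were lower in ICR. The Crot call was lost in 4 of the 12 fits that each left out 1 library (adjusted p of up to 0.098) and the other 3 in 8 (up to 0.152 for Mug1, 0.121 for Ces1c and 0.156 for mt-Nd4). Nnt, which carries a deletion in C57BL/6J, was low in both strains, with 1.16, 1.53 and 1.82 CPM in ICR and 2.13, 1.64 and 1.86 CPM in C57BL/6J (-0.32, adjusted p = 0.4647).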
